A study of Saccharomyces cerevisiae with 2 samples.

Results

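Yeast takes up glucose through a family of hexose transporters, and the genes described here are HXT1 to HXT7, the sensor genes SNF3 and RGT2, and RGT1, which encodes the repressor that the sensors control. They were taken by symbol from the deposited gene tables, and 10 of 10 were found among 5659 genes with reads. They were chosen by name, with their ratios of reads and RPKM between ZGR3 and ZTW1 known, so those values are given as a description. RNA sequencing was done on 1 library of ZGR3, a mutant of ZTW1, and on 1 library of ZTW1, a wild type strain of Saccharomyces cerevisiae used for bioethanol. The sources used here do not give the mutation in ZGR3, how it arose, or how many clones or cultures went into each library. Both were cultured in YPD (25 mL), which is rich medium made of 10 g/L yeast extract and 20 g/L each of peptone and glucose. Cultures were started at an OD600 of 0.05 and harvested at the start of stationary phase. The amount of glucose remaining at harvest is not stated.

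Hxt proteins carry hexoses across the plasma membrane by facilitated diffusion, and the cell changes the set it makes as glucose is used up. Hxt1 and Hxt3 have low affinity and are made when glucose is plentiful, Hxt2, Hxt4, Hxt6 and Hxt7 have higher affinity and are made when glucose is scarce, and Hxt5 is made in slowly growing cells. Snf3 and Rgt2 resemble transporters but act as sensors of low and high glucose. Their signal leads to destruction of the corepressors Mth1 and Std1, after which Rgt1 no longer holds HXT genes off, while Mig1 and its relatives repress the genes for higher affinity transporters at high glucose.

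The ZGR3 library held 4.61 M (mega) reads assigned to 5612 genes and the ZTW1 library 4.66 M reads assigned to 5626 genes. Levels are given as reads and as the authors' RPKM, which divides reads by gene length in kilobases and by M assigned reads. Each strain has 1 library, so the differences have neither a replicate check nor a test, and every interval is an exact 95% interval (Clopper-Pearson) that covers counting error only. A lower level in a culture can come from fewer cells with the transcript or from less transcript per cell, and these cannot be told apart.

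HXT6 and HXT7 are shown first because their near-identity decides how their counts can be read. In the RefSeq assembly R64 their coding sequences, both on the minus strand of chromosome IV, were identical at 1710 of 1713 bases (99.8%). They differed by T1632C, G1666A and T1677C, where the HXT6 base comes first and positions count from 1 at the start of the coding sequence. All 3 positions lie in the last 82 bases of the gene. A read of 49 bases, the length covered in the tables by genes with 1 read, could be placed on 1 of these genes only if it met such a position. Windows of 49 bases that occur once in the R64 genome, called placeable here, numbered 82 of 1665 in each gene and covered its last 130 bases, positions 1584 to 1713. Those 130 bases follow 5′ to 3′ on the coding strand, with the differing bases in capitals, from the reference strain and not from ZTW1 or ZGR3.
HXT6: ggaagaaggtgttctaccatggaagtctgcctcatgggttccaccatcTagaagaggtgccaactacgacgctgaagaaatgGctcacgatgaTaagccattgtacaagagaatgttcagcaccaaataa
HXT7: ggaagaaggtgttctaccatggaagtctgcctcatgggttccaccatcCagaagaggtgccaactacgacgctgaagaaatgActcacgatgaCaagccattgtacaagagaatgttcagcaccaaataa

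The deposited coverage matched this stretch in size. Placeable windows made up 7.59% of the length of each gene, and reads covered 7.41% of HXT7 in ZGR3 and 7.41% in ZTW1, which is 127 bases. HXT6 was covered over 49 bases in ZGR3 and 118 bases in ZTW1. The tables do not give read positions, but reads of this pair covered at most 127 bases of genes of 1713 bases, and their RPKM is divided by the whole length. The other members had far more placeable sequence, from 96.2% of the length of HXT3 to 100% of HXT2, HXT4, SNF3, RGT2 and RGT1. The R64 sequence was looked up by gene and is not the build of the deposited tables, which is sacCer2, and HXT4 is 48 bases longer in R64 than its listed length of 1683. All other members had the listed length in R64.

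**Figure D1:**
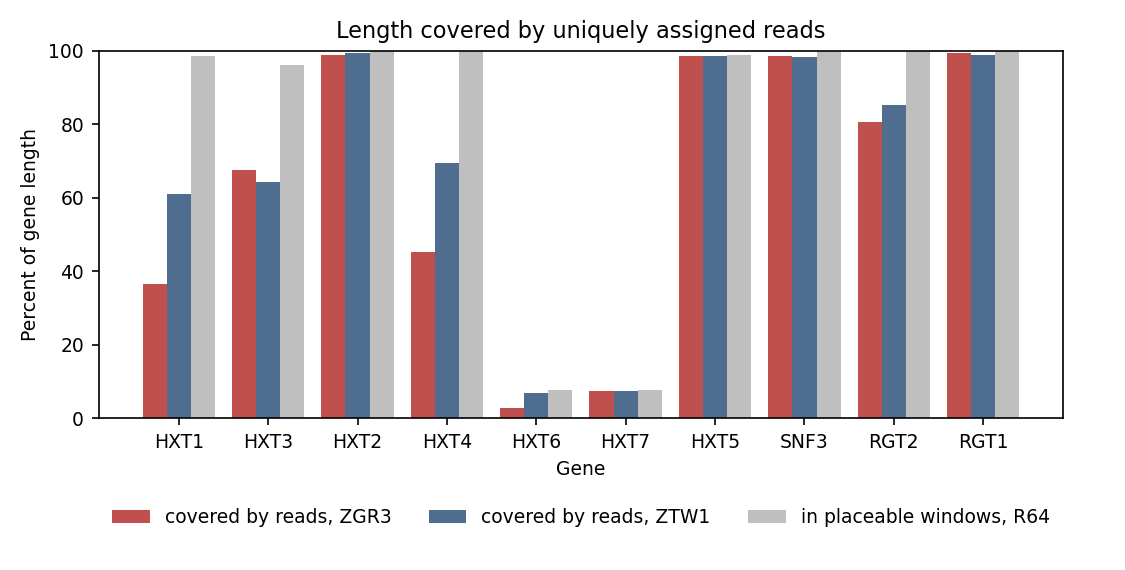
Percent of the length of each gene covered by uniquely assigned reads in ZGR3 (red) and in ZTW1 (blue), beside the percent lying in 49-base windows that occur once in R64 (grey). HXT6 and HXT7 reach at most 7.59%, while HXT4 is covered over 45.1% in ZGR3 and 69.46% in ZTW1 although all of it is placeable.

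Setting ZGR3 beside ZTW1 shows how transcript levels in the mutant differ from those in its parent. On the scale log2((RPKM ZGR3 + 1)/(RPKM ZTW1 + 1)), HXT4 had the lowest ratio of the members and of all genes compared. By reads per total, without a pseudocount, HXT6 had a lower ratio, 0.0220 against 0.0360 for HXT4. HXT6 kept 1 read in ZGR3 while the counts of HXT7 were close in both libraries. HXT1, HXT2 and HXT5 were moderately lower in ZGR3. The sensor genes were within 1.03-fold. On the log2 scale, 2 of 10 members, HXT4 and HXT6, were at least 2-fold lower, beside 1.92% of the 5532 genes whose mean RPKM was 1 or more. No member was at least 2-fold higher, beside 0.542% of those genes. The median log2 ratio was -0.37 over the 10 members and -0.02 over all genes compared, and all 10 members reached that mean RPKM. For 6 members the counting interval lay wholly below equality, beside 19.8% of all genes compared, and for 0 members wholly above it, beside 17.9%. Since the members were chosen with these ratios known, nothing is read from the counts.

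**Figure D2:**
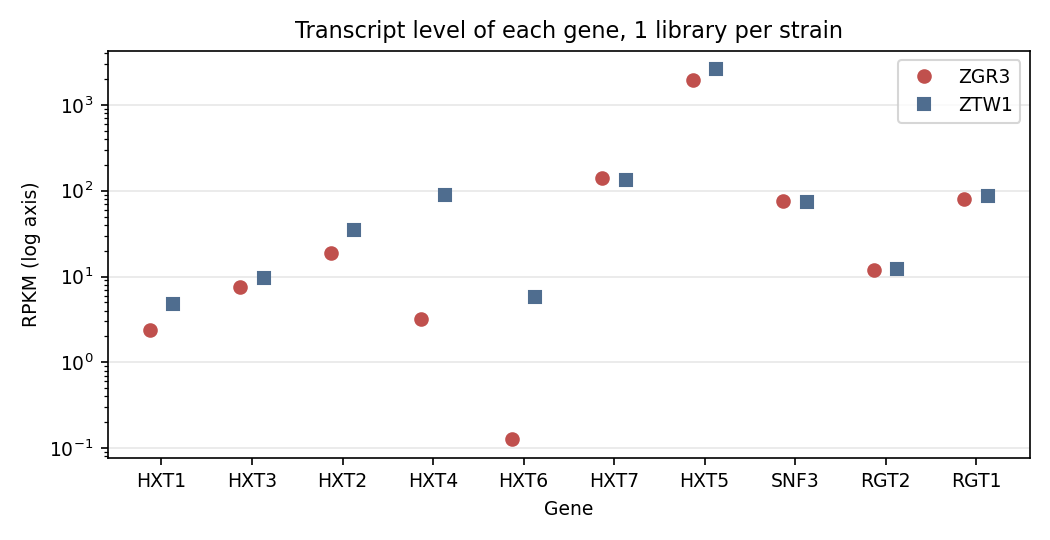
RPKM of each gene on a log axis in ZGR3 (red circles) and ZTW1 (blue squares), 1 library each. The widest gaps are at HXT4 and HXT6, and the sensor genes SNF3 and RGT2 nearly coincide.

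Among the low affinity transporters, HXT1 had 19 reads in ZGR3 and 38 reads in ZTW1, or 2.41 RPKM in ZGR3 and 4.76 RPKM in ZTW1. It was 1.98-fold lower in ZGR3, with a counting interval of 1.11 to 3.63. HXT3 had 59 reads (7.51 RPKM) in ZGR3 and 76 reads (9.57 RPKM) in ZTW1. Both genes of this class were thus scarce in both cultures. For HXT3 the ratio of 0.785 had an interval of 0.549 to 1.12, so this depth could not show a difference.

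HXT2, a high affinity transporter gene induced by low glucose, had 142 reads (18.9 RPKM) in ZGR3 and 262 reads (34.6 RPKM) in ZTW1. This made it 1.82-fold lower in ZGR3 (1.48 to 2.25), with a log2 ratio of -0.83. Its reads lay along nearly the whole gene, over 98.83% of its length in ZGR3 and 99.26% in ZTW1.

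HXT4, a further high affinity transporter gene, had 25 reads (3.22 RPKM) in ZGR3 and 702 reads (89.5 RPKM) in ZTW1. ZGR3 was 27.8-fold lower (18.7 to 43.2), and the log2 ratio of -4.42 ranked 1 from the bottom of 5532 genes. In level, HXT4 stood at place 5328 in ZGR3 and at place 1361 in ZTW1 among all genes by RPKM. In ZGR3 it thus lay among the scarcest transcripts, and in ZTW1 in the upper part of the list.

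HXT4 reads covered 45.1% of the gene in ZGR3 and 69.46% in ZTW1. In ZGR3, 25 reads of 49 bases placed at random along the gene would cover 51.7%, and the 27 genes of 1500 to 1900 bases with 20 to 30 reads had a median coverage of 43.96%. In ZTW1, 702 reads placed at random would cover 100%, and the 666 genes with 500 to 1000 reads had a median of 98.83%, with 5 of them covered less than HXT4. The coverage of HXT4 was thus low for its reads in ZTW1. In ZGR3 it was near that of genes with like reads. However, 25 reads are too few to show whether part of the gene was left uncovered there too. No difference in coverage between the strains is therefore read from these values. HXT3 was also covered less than random placement would give, at 67.55% against 81.7% in ZGR3 and 64.26% against 88.8% in ZTW1. The same held for RGT2, at 80.67% against 93.2% in ZGR3 and 85.21% against 93.7% in ZTW1. For HXT1 it was 36.37% against 41.9% in ZGR3 and 60.95% against 66.3% in ZTW1. HXT2 was close to random placement, at 98.83% against 98.6% in ZGR3 and 99.26% against 99.96% in ZTW1. Random placement was taken over the full length, although 84.8% of the 49-base windows of HXT3 occur once in R64. The 27 genes set beside HXT4 in ZGR3 also had a median below its random value. Sequence differences between these strains and the reference, and reads drawn from other HXT genes, were not tested. In R64 the coding sequence of HXT4 was 81.7% identical to HXT7, 81.6% to HXT6, 76.6% to HXT3 and 76.2% to HXT1. It was 67.9% identical to HXT5 and 67.5% to HXT2, and 97.4% of its 49-base windows occur once in R64.

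HXT6 and HXT7 encode high affinity transporters. HXT6 had 1 read (0.127 RPKM) in ZGR3 and 46 reads (5.76 RPKM) in ZTW1, a ratio of 0.0220 (interval 0.000545 to 0.129). HXT7 had 1101 reads (139.4 RPKM) in ZGR3 and 1072 reads (134 RPKM) in ZTW1, a ratio of 1.04 (0.954 to 1.13). Their sum was 1102 reads in ZGR3 and 1118 reads in ZTW1. The summed ratio was 0.997 (0.916 to 1.08). The log2 ratio of HXT6 alone, -2.59 with a pseudocount of 1 RPKM, was -4.69 with 0.1 RPKM and -1.07 with 5 RPKM.

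Within the sum, HXT6, which a read can be assigned to only through the capital letters printed above, took 0.0907% of the reads of the pair in ZGR3 (0.00230 to 0.505) and 4.11% in ZTW1 (3.03 to 5.45). HXT7 thus held nearly all the placed reads of the pair in both libraries. The ZGR3 share of HXT6 rests on 1 read, and both intervals cover counting error only. HXT6 was chosen with its ratio known, so nothing is read from the difference in share. Which bases the strains themselves carry at these positions was not tested.

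HXT5, whose transporter has moderate affinity and is made when growth slows, had by far the most reads of the family. It had 15863 reads (1934 RPKM) in ZGR3 and 21583 reads (2603 RPKM) in ZTW1. The gene ranked 72 by RPKM in ZGR3 and 53 in ZTW1 among all genes. It was 1.35-fold lower in ZGR3, with a narrow interval of 1.32 to 1.37 and a log2 ratio of -0.43. Reads covered 98.54% of HXT5 in ZGR3 and 98.59% in ZTW1, close to the 98.7% that is placeable.

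**Figure D3:**
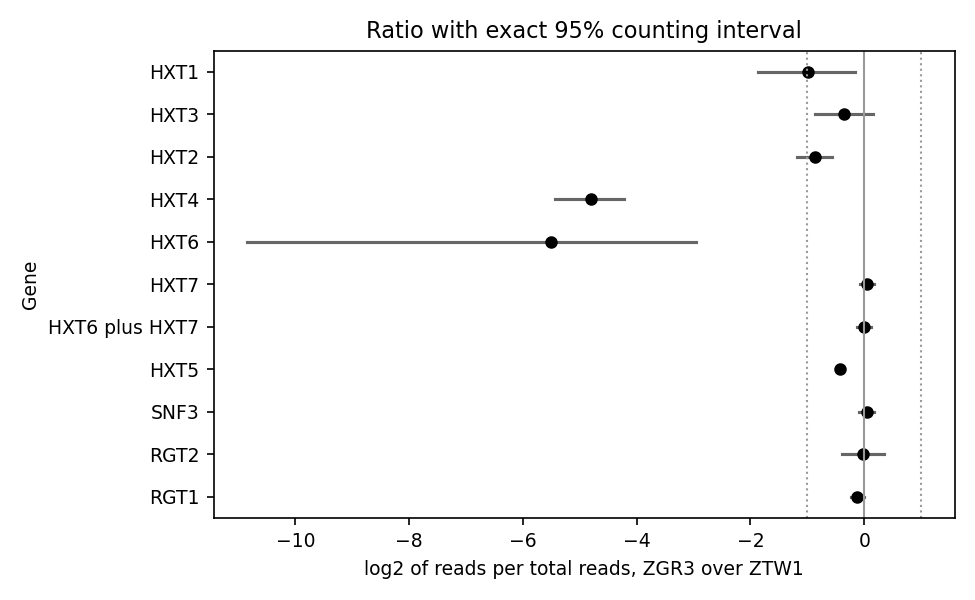
Log2 of the ratio of reads per total reads, ZGR3 over ZTW1, for each gene and for HXT6 and HXT7 summed, with exact 95% counting intervals (bars), equality (solid line) and 2-fold (dotted lines). HXT4 and HXT6 lie wholly beyond 2-fold lower, and the sum of HXT6 and HXT7 lies at equality.

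The sensor genes differed little. SNF3, the sensor of low glucose, had 918 reads (75.0 RPKM) in ZGR3 and 902 reads (72.9 RPKM) in ZTW1, a ratio of 1.03 (0.938 to 1.13). RGT2, the sensor of high glucose, had 126 reads (11.9 RPKM) in ZGR3 and 129 reads (12.1 RPKM) in ZTW1, a ratio of 0.988 (0.766 to 1.27). Both intervals included equality, and that of RGT2 was the wider because of its fewer reads. RGT1, the repressor gene, had 1289 reads (79.6 RPKM) in ZGR3 and 1416 reads (86.5 RPKM) in ZTW1. It was 1.09-fold lower in ZGR3, with an interval of 1.01 to 1.17, whose lower bound lay close to equality.

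By RPKM, the order of the members in ZGR3 was HXT5, HXT7, RGT1, SNF3, HXT2, RGT2, HXT3, HXT4, HXT1 and HXT6. In ZTW1 it was HXT5, HXT7, HXT4, RGT1, SNF3, HXT2, RGT2, HXT3, HXT6 and HXT1. HXT4 was at place 8 in ZGR3 and at place 3 in ZTW1. Among neighbours in the order, RGT1 and SNF3 (ratio 1.06, 0.974 to 1.16) and HXT4 and HXT1 (1.34, 0.708 to 2.57) did not differ beyond counting error in ZGR3. In ZTW1 the same held for HXT4 and RGT1 (1.03, 0.944 to 1.13), RGT2 and HXT3 (1.26, 0.943 to 1.70), and HXT6 and HXT1 (1.21, 0.771 to 1.91). The places of HXT6 and HXT7 rest on RPKM over the full length, although reads covered only a short stretch of each.

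The 7 transporter genes took 0.373% of all assigned reads in ZGR3 and 0.510% in ZTW1, and their summed reads were 1.37-fold lower in ZGR3 (1.34 to 1.39). This sum is mostly HXT5, with 15863 of 17210 reads in ZGR3 and 21583 of 23779 in ZTW1. It counts HXT6 and HXT7 from a short stretch only, so the size of the difference depends on the scale. On the RPKM scale, HXT5 made up 91.8% of the summed level in ZGR3 and 90.3% in ZTW1. HXT6 and HXT7 together made up 6.63% in ZGR3 and 4.86% in ZTW1, and HXT4 0.153% in ZGR3 and 3.11% in ZTW1. HXT5 was thus 13.9 times the pair in ZGR3 and 18.6 times in ZTW1.

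The make-up was different when each count was divided by the number of placeable windows of its gene, a scale chosen after seeing the data. HXT6 and HXT7 together then had 13.4 reads per window in ZGR3 and 13.6 in ZTW1, while HXT5 had 9.56 in ZGR3 and 13.0 in ZTW1. The pair made up 58.0% of the summed level in ZGR3 and 49.9% in ZTW1, and HXT5 41.3% in ZGR3 and 47.6% in ZTW1. The remaining transporter genes, HXT1 to HXT4, had small shares, with HXT4 at 0.0659% in ZGR3 and 1.57% in ZTW1. On this scale the pair was 1.41 times HXT5 in ZGR3 and 1.05 times in ZTW1. The summed level of HXT1 to HXT7 was 23.2 reads per window in ZGR3 and 27.3 in ZTW1, not divided by total reads. By RPKM that sum was 2106 in ZGR3 and 2881 in ZTW1. The placeable windows of the pair all lie at the 3′ end of the gene, and whether reads pile up there in these libraries was not tested.

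**Figure D4:**
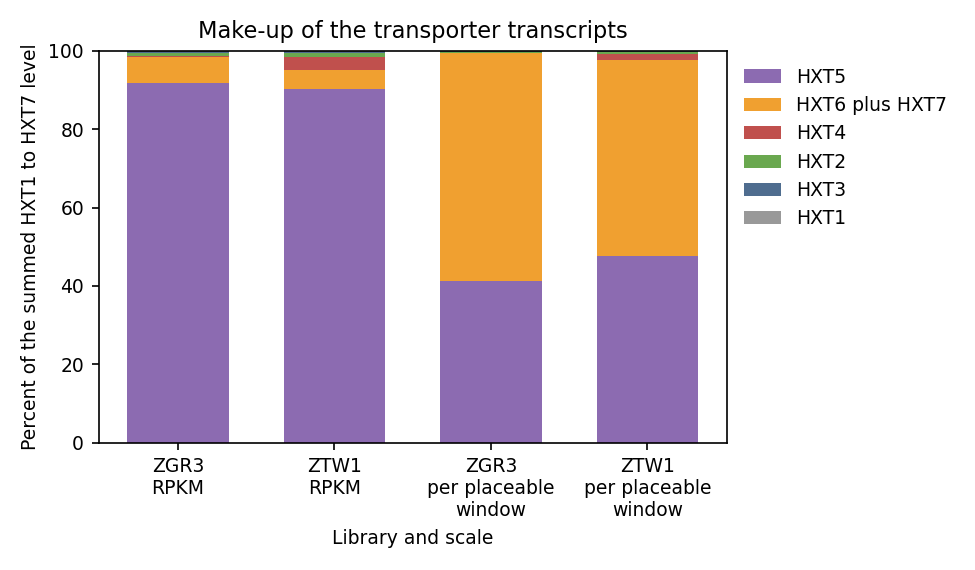
Share of each gene in the summed level of HXT1 to HXT7, with HXT6 and HXT7 summed, for ZGR3 and ZTW1 on the RPKM scale (left pair of bars) and as reads per placeable window (right pair). HXT5 fills 91.8% (ZGR3) and 90.3% (ZTW1) of the RPKM bars, and the pair fills 58.0% (ZGR3) and 49.9% (ZTW1) of the others.

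All of the transporter genes except HXT2 lie in 2 clusters, which allowed the genes between and beside them to be set beside the members. On chromosome VIII the order is YNG2, MSR1, HXT4, AHT1, HXT1, HXT5, YHR097C and SFB3. The log2 ratio was 0.39 for YNG2 and 0.17 for MSR1 on the HXT4 side, and -0.19 for YHR097C and 0.17 for SFB3 on the HXT5 side. The members of this cluster were at -4.42 for HXT4, -0.76 for HXT1 and -0.43 for HXT5. Of all genes compared, 52.0% lay below 0 and 48.0% above, so nothing is read from the signs of so few genes. AHT1, which lies between HXT4 and HXT1, has no value in either table.

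On chromosome IV the order is FCF1, YDR341C, HXT7, HXT6, YDR344C, HXT3, SVF1 and MRP1. The flanking genes had log2 ratios of -0.01 for FCF1, 0.17 for YDR341C, -0.05 for SVF1 and -0.41 for MRP1, a mitochondrial ribosomal protein gene. HXT6 at -2.59 stood between HXT7 at 0.05 and HXT3 at -0.31. YDR344C has no value in either table.

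**Figure D5:**
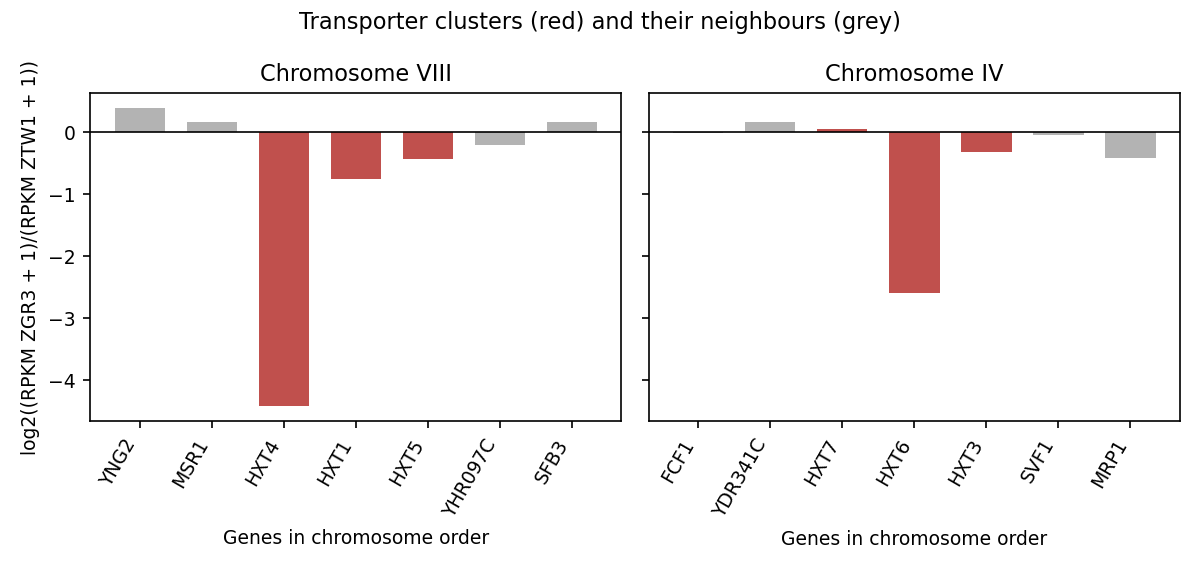
Log2((RPKM ZGR3 + 1)/(RPKM ZTW1 + 1)) of the transporter genes (red) and their neighbours (grey), in chromosome order and not to distance, on chromosomes VIII and IV. The flanking genes lie between -0.41 and 0.39, and HXT4 and HXT6 lie at -4.42 and -2.59.

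Over these 2 libraries, the 3 other genes at 10 or more mean RPKM whose log2 ratio was nearest to that of HXT4 were FIT2 at -2.64, FIT3 at -2.58 and MFA1 at -2.52. FIT2 and FIT3 encode cell wall mannoproteins involved in iron uptake, and MFA1 encodes a mating pheromone. At this floor FIT2, the nearest, lay 1.78 away on the log2 scale. FIT2 ranked 5 from the bottom of the 5532 genes compared, so scarcer genes below this floor lay nearer to HXT4. MFA1 rested on 2 reads in ZGR3 and 14 reads in ZTW1.

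Of the other hexose transporter genes, HXT8 to HXT17 and GAL2, 9 of 11 had reads and 6 had a mean RPKM of 1 or more. None of the 6 was at least 2-fold apart on the log2(RPKM + 1) scale, beside 1.92% of all genes compared lower and 0.542% higher. All 6 had a ratio above 0, beside 48.0% of all genes compared. Their median log2 ratio was 0.36, and that of all genes compared was -0.02. HXT8 was furthest, with 43 reads in ZGR3 and 21 in ZTW1 and a log2 ratio of 0.83. HXT13 followed with 71 reads in ZGR3 and 43 in ZTW1 and a log2 ratio of 0.65. These were the 2 genes of the 6 whose counting interval lay above equality, beside 17.9% of all genes compared. GAL2, the galactose transporter gene, had 18 reads in ZGR3 and 16 in ZTW1. Below a mean RPKM of 1, HXT10 went the other way, with 0 reads in ZGR3 and 5 in ZTW1. HXT14 had 1 read in ZGR3 and 0 in ZTW1, and HXT15 had 5 in ZGR3 and 2 in ZTW1. All of these transporter genes had few uniquely assigned reads, and HXT9 with HXT11 and HXT13 with HXT17 are close copies that can share reads. Placeable windows were not computed for these genes, so their low counts need not mean scarce transcripts. Nothing is therefore read from the signs of so few genes.

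Glucose signalling genes were taken as a list of 22, all of which had reads. The list holds parts of the Snf3-Rgt2-Rgt1, Mig1-Snf1 and Gpr1 branches. None of the 22 was 2-fold apart, beside 1.92% of all genes compared at least 2-fold lower and 0.542% at least 2-fold higher. Their median log2 ratio was 0.02. For 7 the counting interval lay above equality (17.9% of all genes compared), for 1 below (19.8%), and for 14 it included equality. YCK1, a casein kinase gene of the sensor pathway, was furthest above, with 1106 reads in ZGR3 and 699 in ZTW1, 1.60-fold higher (1.45 to 1.76). MTH1, the corepressor gene, was 1.29-fold higher (1.09 to 1.52) with 338 reads in ZGR3 and 265 in ZTW1. STD1, its paralog, had 20 reads in ZGR3 and 25 in ZTW1.

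MIG1 and MIG2 encode repressors that act at high glucose. MIG1 had 47 reads in ZGR3 and 66 in ZTW1 (ratio 0.720, 0.484 to 1.06), and was the gene furthest below 0 in this list, with a log2 ratio of -0.42. MIG2 had 117 reads in ZGR3 and 126 in ZTW1 (0.939, 0.724 to 1.22). HXK2, the hexokinase gene with a role in glucose repression, had 99 reads in ZGR3 and 125 in ZTW1 (0.801, 0.609 to 1.05). The intervals of all 3 included equality, so this depth could not show a difference for them.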

How the data were processed

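Total RNA came from a hot phenol extraction followed by 30 min of DNase, and its poly(A) fraction went into Illumina libraries, per the labels' protocols. Each deposited table gives, per the file headers, the count of reads assigned uniquely to a gene. The authors' RPKM was given back by reads, listed length and total for 5659 of 5659 genes. The coverage column is a percent of gene length, per the file headers. All listed lengths were multiples of 3. Per the submitters' processing notes, the genome build was sacCer2. The sources used here do not name the aligner, read filters or strand handling. Genes absent from a table were set to 0 reads.

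Ratios were computed as log2((RPKM ZGR3 + 1)/(RPKM ZTW1 + 1)). Genes had to reach a mean RPKM of 1. The pseudocount shrinks the ratios of scarce genes. Ratios of reads per total carry exact 95% Clopper-Pearson intervals. Reads carry no molecular identifiers. No test was possible with 1 library per strain, so a 2-fold rule was used. Members, lists, alternatives and the rule for named genes were chosen with earlier results of these data known. Named were all members, the 2 furthest genes of each list, MTH1, STD1, MIG1, MIG2, HXK2 and GAL2, cluster neighbours (2 on each side) and the 3 genes nearest to HXT4.

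Names and gene order come from RefSeq R64, in which 5650 IDs matched a protein-coding gene and 9 did not. Coding sequences were read from R64 by gene ID, aligned globally with Biopython 1.88 (match 2, mismatch -1, gap opening -5, gap extension -0.5), and searched in R64 for exact 49-base windows on both strands. Alternatives were other pseudocounts, filters, scalings (including trimmed mean of M values from edgeR 4.0.16), reads per M total reads and a 3-fold rule. The steps were tested on simulated data. Software was R 4.3.3 and Python 3.11.15 with matplotlib 3.10.9, scipy 1.17.1, pandas 2.3.3 and numpy 2.4.6.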

Additional observations from a re-analysis of the deposited data

How the results depend on the processing

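The count of members at least 2-fold lower in ZGR3 was 2, and it was 1 (HXT4) at a mean RPKM of at least 10, which removes HXT6 by construction, and 1 when HXT6 and HXT7 were summed. It was 2 under the other alternatives run, and 0 members were at least 2-fold higher in each of them. The log2 ratio of HXT4 was -4.42, and -3.52 with a pseudocount of 5 RPKM, since its level in ZGR3 lies below that pseudocount. Dividing by placeable windows, chosen after seeing the data, brought HXT6 and HXT7 together to 58.0% of the summed transporter level in ZGR3 and to 49.9% in ZTW1, against 6.63% (ZGR3) and 4.86% (ZTW1) by RPKM. For the 9 other members, 69 of 69 alternative values differed from the main value by less than the counting error of the ratio. That error is very wide for HXT6, with 1 read in ZGR3, whose log2 ratio of -2.59 was -4.69 with a pseudocount of 0.1 RPKM and -1.07 with 5 RPKM. No library could be left out, and no paired analysis was possible because each strain has 1 library. Depth limits the ZGR3 values of HXT1, HXT3, HXT4 and HXT6, which rest on at most 59 reads.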
